A study of Mus musculus with 7 samples.

Results

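Expression of 10 genes of the Notch signalling pathway was followed in EML cells that had been sorted on surface CD34. They are Hes1, a transcriptional repressor switched on by Notch, the receptors Notch1, Notch2 and Notch3, the glycosyltransferases Lfng and Mfng, the nuclear factors Rbpj and Maml1, and the regulators Dtx3 and Numb. They were taken by symbol from a table of 20464 rows, and all 10 were listed. EML is a mouse multipotent haematopoietic line, immortalised with a dominant-negative retinoic acid receptor, that can give rise to erythroid, myeloid and lymphoid cells. Only Annexin V-negative, that is live, cells were sorted. RNA was sequenced in 3 libraries of CD34-positive and 4 libraries of CD34-negative EML cells. All 7 libraries carry the same labels for strain (C57BL/6), tissue (bone marrow) and age (post natal day 14.7), with no treatment or transgene named, and 1 cell line is the whole model. The descriptions number the libraries: replicate 1 of each group carries number 3, replicate 2 number 2, and CD34-positive replicate 3 and CD34-negative replicates 3 and 4 number 4.

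In Notch signalling a ligand on one cell binds a Notch receptor on its neighbour. ADAM proteases and then the γ-secretase complex cut the receptor, and its freed intracellular domain enters the nucleus, joins the DNA-binding protein Rbpj and a Mastermind coactivator, and turns on genes such as Hes1. Fringe enzymes (Lfng, Mfng, Rfng) add sugars to the receptor that alter which ligands it answers. In blood formation the pathway is best known for directing lymphoid progenitors to the T cell fate and for the emergence of the first stem cells in the embryo.

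Values are FPKM, in which the fragments of a transcript are divided by its length and by the size of the library, so levels can be set side by side between genes. How many fragments lie behind a value is unknown. Cd34, the sorted marker, stood at 147, 256 and 153 FPKM in CD34-positive replicates 1, 2 and 3, against 91.8, 19.3, 2.67 and 6.02 FPKM in CD34-negative replicates 1 to 4. The groups did not overlap, but CD34-negative replicate 1 lay close to the CD34-positive libraries. All 8 listed progenitor markers were tested. Kit, Tal1, Runx1 and Ptprc had groups that overlapped. With Cd34, the surface markers Ly6a and Cd48 had groups that did not overlap and were higher in CD34-positive libraries (Ly6a averaged 161 and Cd48 158 FPKM there, against 24.0 and 65.6 FPKM in CD34-negative ones). The transcription factor Gata2 was lower without overlap, with a mean of 85.6 FPKM over the CD34-positive libraries and of 295 FPKM over the CD34-negative ones. None of 7 T cell and 5 B cell markers reached the minimum for testing given below. Cd3e, Cd8a, Thy1, Pax5 and Ms4a1 were listed at 0 in every library, but Lck reached 2.13 and Cd79b 1.57 FPKM, and Cd3g stood at 0 to 0.07 FPKM in CD34-positive and 0.55 to 0.88 FPKM in CD34-negative libraries. Of 9 endothelial and stromal markers only Pecam1 and Pdgfrb were tested, and of 6 hepatocyte markers only Trf, all 3 higher in the CD34-positive library within every number. Alb was listed at 0 in every library, and Trf ranged from 149 to 197 FPKM in CD34-positive and from 35.1 to 164 FPKM in CD34-negative libraries. What these markers contribute to the differences below was not tested. In the 3 libraries of number 4, ribosomal protein genes made up 2.25% to 4.15% of all FPKM, and in the other 4 libraries 27.7% to 37.1%, so the libraries are of 2 kinds that cross the groups. Summed FPKM was 262742 to 434138 in the libraries of number 4 and 551874 to 734212 in the other 4. Levels were not rescaled for this, except in the quantile and median-ratio alternatives below.

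The promoters shown here are those in which the DNA letters bound by Rbpj, the step between receptor and target gene, were looked for. RefSeq windows (build GRCm38.p6, from 250 bases before to 50 bases after a transcription start) were on hand for 7 of the 10 genes, with 10 windows in all. They were searched on both strands for GTGGGAA and for its core TGGGAA, which lies inside it. The full letters occurred in 1 of the 10 windows, that of Lfng, and in 6.38% of all 32851 windows. The core occurred in 3 of the 10 windows, of Lfng and Rbpj, and in 25.6% of all windows. The Rbpj windows overlap, and the only match in the second is also a match of the first. Of the 37 tested genes of the wider pathway list that had a window, 3 held the full letters (Aph1a, Psen2 and Spen). Psen2, a γ-secretase subunit, is shown because its values are described below, and held them in the second of its 2 windows. Capitals mark the matches, on either strand, of the letters named beside each window, and a match to the core alone is left in lower case where the full letters are named.
Lfng (chr5:140607091-140607390, plus strand, GTGGGAA): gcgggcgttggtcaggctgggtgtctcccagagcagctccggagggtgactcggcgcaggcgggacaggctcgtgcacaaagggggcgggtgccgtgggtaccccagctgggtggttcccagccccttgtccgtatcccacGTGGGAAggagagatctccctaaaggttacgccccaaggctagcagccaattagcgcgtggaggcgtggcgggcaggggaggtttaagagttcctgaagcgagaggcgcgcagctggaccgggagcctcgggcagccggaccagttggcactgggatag
Rbpj (chr5:53590096-53590395, plus strand, TGGGAA): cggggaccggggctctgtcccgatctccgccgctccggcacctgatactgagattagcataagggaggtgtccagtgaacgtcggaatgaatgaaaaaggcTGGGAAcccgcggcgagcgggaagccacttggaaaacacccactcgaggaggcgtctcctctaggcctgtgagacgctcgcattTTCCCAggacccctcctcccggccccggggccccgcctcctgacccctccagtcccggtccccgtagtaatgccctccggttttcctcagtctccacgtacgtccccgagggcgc
Psen2 (chr1:180245901-180246200, minus strand, GTGGGAA): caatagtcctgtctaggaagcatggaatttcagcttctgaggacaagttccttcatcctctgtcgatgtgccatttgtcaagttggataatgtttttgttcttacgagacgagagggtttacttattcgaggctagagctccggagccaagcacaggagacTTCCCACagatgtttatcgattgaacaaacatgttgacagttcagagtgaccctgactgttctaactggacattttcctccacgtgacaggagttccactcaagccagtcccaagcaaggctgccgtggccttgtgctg
A match of letters is a description of these windows and was not tied to binding or to expression. Hes1, Dtx3 and Mfng had no entry.

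Hes1 had the widest difference of the 10 genes between the groups. It stood at 0.921, 1.49 and 0.663 FPKM in CD34-positive replicates 1, 2 and 3, against 4.74, 17.6, 45.6 and 13.8 FPKM in CD34-negative replicates 1 to 4. Every CD34-positive library lay below every CD34-negative one, and the CD34-positive libraries sat around the level of 1 FPKM that was used as the minimum for testing. The mean was 1.02 ± 0.42 FPKM over the CD34-positive libraries (SD, n = 3) and 20.4 ± 17.6 FPKM over the CD34-negative ones (SD, n = 4).

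Differences were tested with limma on log2(FPKM + 1) over the 9259 genes that reached 1 FPKM in at least 3 libraries, with Benjamini-Hochberg adjustment. On that scale, which understates the change of low genes, the Hes1 difference was -3.05 (SE 0.62), CD34-positive minus CD34-negative. It had an unadjusted p of 0.000951 in limma and an adjusted p of 0.494, and so did not pass 0.05. By size it was the 20th most negative difference of the 9259. An exact two-sided permutation test of the Hes1 values alone, which doubles the smaller tail, gave p = 0.0571. That is the smallest that this doubling allows with 35 splits of 7 libraries. With the description number as a block, the difference was -2.94 (SE 0.54, adjusted p = 0.0931 in limma). By unadjusted p Hes1 ranked 95th of the 9259 there, and genes further down, such as Cd34 at 306th, shared that adjusted p. In that blocked fit Hes1 passed without CD34-negative replicate 1 (-3.52, adjusted p = 0.0309 in limma) and without CD34-positive replicate 1 (-3.52, adjusted p = 0.0310 in limma). It also passed without CD34-negative replicate 3 (-2.55, adjusted p = 0.0436 in limma). In the other 4 blocked fits with 1 library left out it did not pass, with adjusted p of 0.136 to 0.531 in limma. A number left with 1 library adds nothing to the blocked difference. Leaving out either library of number 3 is therefore 1 comparison, not separate ones, and the same holds for number 2. These libraries were from sorted populations in bulk, in which fewer cells that express a gene and less RNA per cell cannot be told apart.

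**Figure D1:**
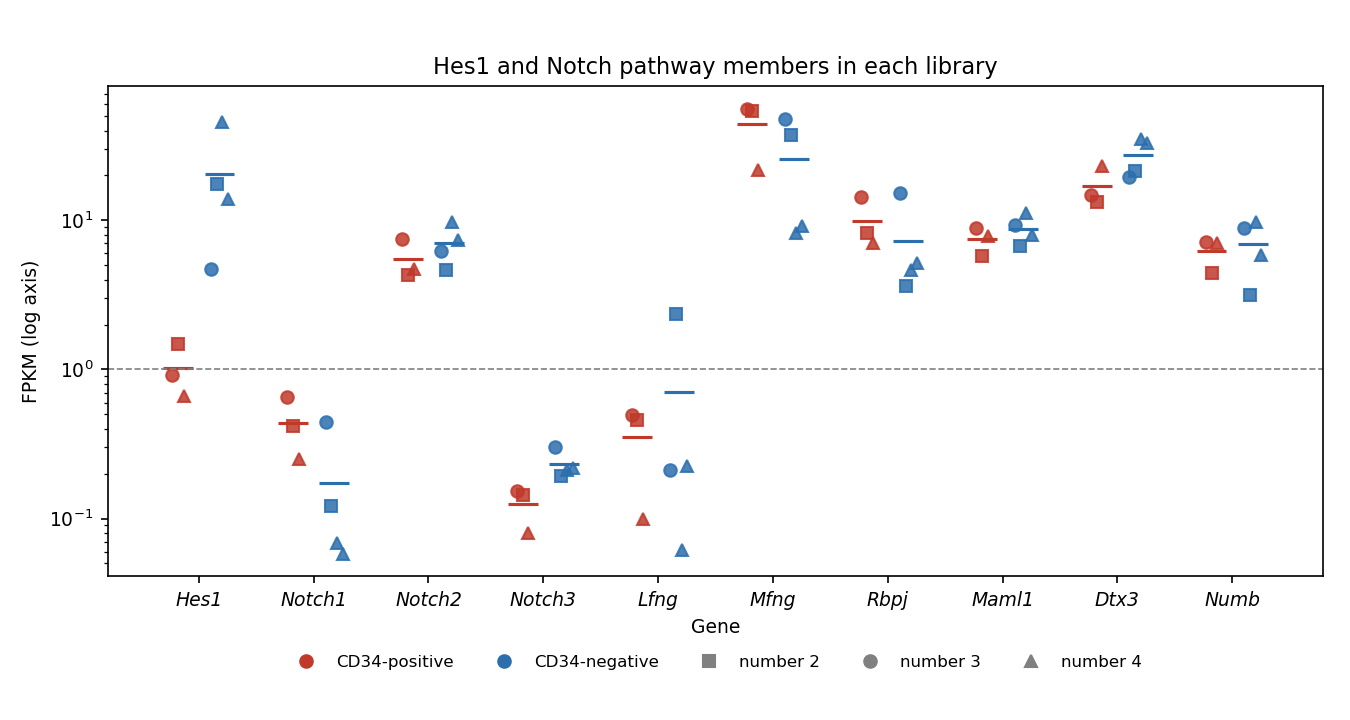
FPKM of the 10 genes (log axis) in each library, with CD34-positive libraries in red on the left and CD34-negative ones in blue on the right of each gene. Marker shapes give the description number, short bars the group means, and the dashed line the minimum of 1 FPKM used for testing. Hes1 and, below the dashed line in every library, Notch3 show no overlap between the groups. Notch1, Notch2, Lfng, Rbpj, Maml1, Dtx3, Mfng and Numb overlap.

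Hes1 was lower in the CD34-positive library within every number. Within number 3 the CD34-negative library had 5.15 times the FPKM of the CD34-positive one, and within number 2 it had 11.8 times. Within number 4 CD34-negative replicate 3 had 68.7 times the FPKM of the CD34-positive library, and replicate 4 had 20.9 times. On the log2(FPKM + 1) scale the 4 differences were -1.58, -2.90, -4.81 and -3.16 in the same order. The smallest came from the pair in which Cd34 itself differed least. The largest came from CD34-negative replicate 3, the library with the least Cd34.

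The receptors were led by Notch2. Its FPKM was 7.55, 4.28 and 4.72 in CD34-positive replicates 1, 2 and 3, against 6.24, 4.67, 9.82 and 7.33 in CD34-negative replicates 1 to 4. The groups overlapped, and the log2 difference was -0.29 (SE 0.32, adjusted p = 1.0 in limma). With the block it was -0.25 (SE 0.22, adjusted p = 0.544 in limma). Notch2 held 87.1% to 92.7% of the summed FPKM of the 4 receptors in CD34-positive libraries and 88.7% to 96.8% in CD34-negative ones.

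Notch1, the receptor that drives T cell fate, and Notch3 were below 1 FPKM in every library and were not tested in the fit above. Notch1 stood at 0.650, 0.416 and 0.250 FPKM in CD34-positive replicates 1, 2 and 3, against 0.444, 0.121, 0.0683 and 0.0581 FPKM in CD34-negative replicates 1 to 4. Within each number the CD34-positive library had more, though the groups overlapped through CD34-negative replicate 1. Notch3 ran the other way, at 0.153, 0.143 and 0.080 FPKM in CD34-positive against 0.300, 0.194, 0.213 and 0.219 FPKM in CD34-negative libraries, with no overlap. In a limma fit with no minimum level, their log2 differences were 0.30 (SE 0.14, adjusted p = 0.837) for Notch1 and -0.13 (SE 0.04, adjusted p = 0.686) for Notch3. At such levels precision rests on a depth that is unknown here. The GENCODE annotation lists RNAs on the opposite strand that overlap exons of both genes, whose reads cannot be told apart if strand was not used in counting. Notch4, the fourth receptor, averaged 0.0596 FPKM in CD34-positive libraries and 0.0621 FPKM in CD34-negative ones.

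Mfng, a fringe enzyme, was the most abundant of the 10 genes in the 4 libraries of numbers 2 and 3. It stood at 56.1, 54.2 and 21.8 FPKM in CD34-positive replicates 1, 2 and 3, against 48.1, 37.2, 8.21 and 9.17 FPKM in CD34-negative replicates 1 to 4. It was higher in the CD34-positive library within every number, with log2 differences of 0.22, 0.53, 1.31 and 1.16. The kind of library moved with it as well, since all 3 libraries of number 4 lay below the other 4 in both groups together. The difference over all libraries was 1.02 (SE 0.68, adjusted p = 1.0 in limma), and 0.72 (SE 0.21, adjusted p = 0.126 in limma) with the block.

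Lfng was below 1 FPKM in every library but CD34-negative replicate 2. It stood at 0.497, 0.456 and 0.0993 FPKM in CD34-positive replicates 1, 2 and 3, against 0.213, 2.34, 0.0612 and 0.225 FPKM in CD34-negative replicates 1 to 4. The groups overlapped, and the gene was not tested in the fit above.

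Neither of the nuclear factors Rbpj and Maml1 passed the test. Rbpj, which holds target genes such as Hes1 silent until Notch arrives, stood at 14.2, 8.28 and 7.04 FPKM in CD34-positive replicates 1, 2 and 3, against 15.4, 3.66, 4.66 and 5.20 FPKM in CD34-negative replicates 1 to 4. Within number 2 and number 4 the CD34-positive library had more, by 1.0, 0.51 and 0.38 on the log2 scale, and within number 3 it had slightly less, at -0.10. The overall log2 difference was 0.54 (SE 0.47, adjusted p = 1.0 in limma), and 0.44 (SE 0.21, adjusted p = 0.277 in limma) with the block. Without CD34-negative replicate 1 and no block it was 0.93 (SE 0.35, adjusted p = 0.473 in limma). Maml1, a Mastermind coactivator, ranged from 5.76 to 8.83 FPKM in CD34-positive and from 6.78 to 11.2 FPKM in CD34-negative libraries. Its log2 difference was -0.21 (SE 0.28, adjusted p = 1.0 in limma), with the CD34-positive library lower in all 4 comparisons within numbers. With the block it was -0.18 (SE 0.16, adjusted p = 0.559 in limma).

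Dtx3 belongs to the Deltex family of ubiquitin ligases, whose founding fly member binds the Notch intracellular domain. It stood at 14.7, 13.2 and 23.1 FPKM in CD34-positive replicates 1, 2 and 3, against 19.6, 21.3, 35 and 33 FPKM in CD34-negative replicates 1 to 4. The groups overlapped only through CD34-positive replicate 3, and the libraries of number 4 were the highest of each group. Within numbers the 4 log2 differences were close to each other, at -0.39, -0.65, -0.58 and -0.50. The overall difference was -0.64 (SE 0.34, adjusted p = 1.0 in limma), and -0.53 (SE 0.13, adjusted p = 0.0970 in limma) with the block. Numb, an adaptor that restrains Notch in one daughter of a dividing cell, ranged from 4.47 to 7.21 FPKM in CD34-positive and from 3.14 to 9.71 FPKM in CD34-negative libraries. Its log2 difference of -0.05 (SE 0.39, adjusted p = 1.0 in limma) was far smaller than its spread and had no settled sign.

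**Figure D2:**
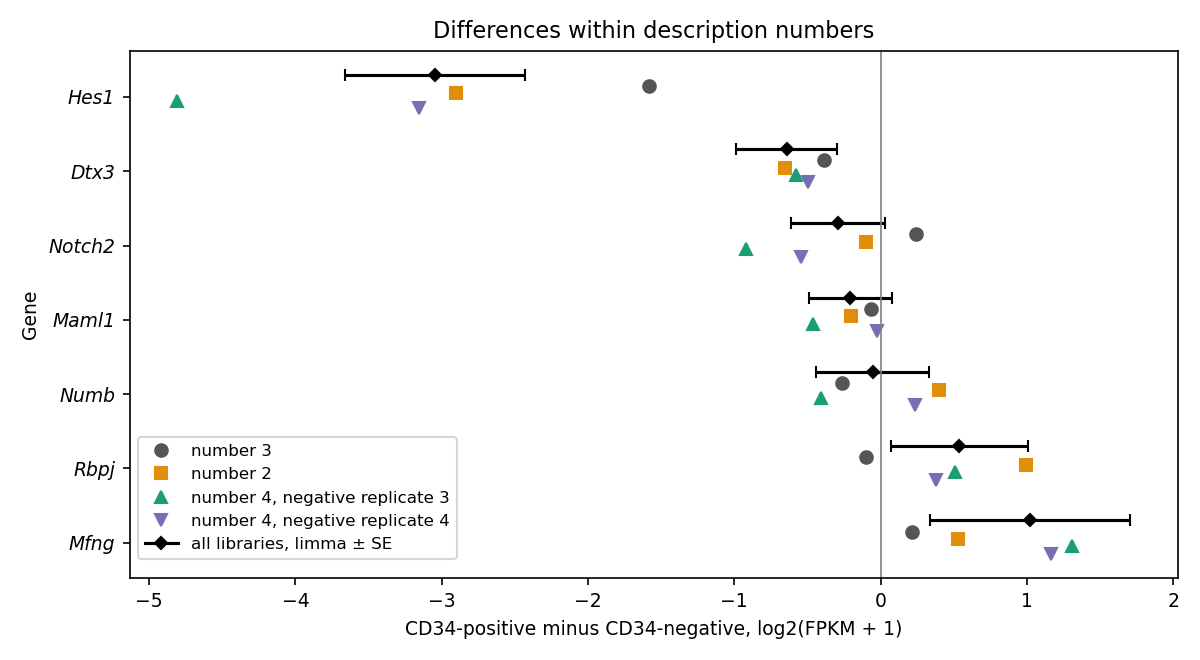
Differences between CD34-positive and CD34-negative libraries on the log2(FPKM + 1) scale for the 7 tested genes. Coloured markers give the 4 comparisons within description numbers and black diamonds the limma difference over all libraries with its SE. Hes1 lies between -4.81 and -1.58, Dtx3 between -0.65 and -0.39, and Mfng between 0.22 and 1.31, while Numb, Rbpj and Notch2 fall on both sides of 0.

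Of the 10 genes, 7 reached the minimum for testing. None of the 7 passed an adjusted p of 0.05 in limma, with or without the block, and neither did any of the 9259 tested genes (0.0% in each direction). At an unadjusted p under 0.05 in limma, 1 of the 7 was called without the block, Hes1, as lower. Of all tested genes 5.65% were called there, 3.38% as higher and 2.27% as lower. With the block 3 of the 7 were called, Hes1 and Dtx3 as lower and Mfng as higher. Of all tested genes 22.0% were called there, 9.14% as lower and 12.8% as higher. Hes1 was the only one of the 7 whose groups did not overlap, with 3.01% of all tested genes not overlapping in the lower direction. The CD34-positive library was lower in all 4 comparisons within numbers for Hes1, Dtx3 and Maml1, against 18.9% of all tested genes, and higher in all 4 for Mfng, against 21.4%. The number 4 libraries did not overlap with the other 4 for 2 of the 7 genes. They were higher for Dtx3, as for 10.6% of all tested genes, and lower for Mfng, as for 35.4%.

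The wider pathway was described with a list of 74 genes, of which 49 were tested. None passed an adjusted p of 0.05 in limma with or without the block. At an unadjusted p under 0.05 in limma, 2 were higher and 2 lower without the block, beside 3.38% and 2.27% of all tested genes. With the block 8 were higher and 8 lower, beside 12.8% and 9.14% of all tested genes. That is 32.7% of the list with the block, or 31.0% (13 of 42) with the 10 genes set aside, beside 22.0% of all tested genes. The median log2 difference was 0.06 over the list and 0.09 over all tested genes.

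Only 1 of 7 ligands was tested. Jag2 stood at 21.3, 31.1 and 16.0 FPKM in CD34-positive replicates 1, 2 and 3, against 17.0, 17.7, 9.86 and 7.03 FPKM in CD34-negative replicates 1 to 4. The groups overlapped, and the CD34-positive library was higher within every number, with a log2 difference of 0.81 (SE 0.40, adjusted p = 0.994 in limma; unadjusted p = 0.00816 with the block). The other ligands, Dll1, Dll3, Dll4, Jag1, Dlk1 and Dlk2, did not exceed 0.0738 FPKM in any library.

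Of the enzymes that modify or cut the receptor, Psen2, a catalytic subunit of γ-secretase, had groups that did not overlap. It stood at 23.1, 24.9 and 11.5 FPKM in CD34-positive replicates 1, 2 and 3, against 37.0, 61.8, 58.3 and 25.6 FPKM in CD34-negative replicates 1 to 4. The log2 difference was -1.15 (SE 0.43, adjusted p = 0.735 in limma), and -1.25 (SE 0.32, adjusted p = 0.101 in limma) with the block. Of the 7 blocked fits with 1 library left out, it passed only in that without CD34-negative replicate 3 (-1.01, adjusted p = 0.0493). The subunits Ncstn, Aph1a and Psenen had differences within their spread. Ncstn and Aph1a were lower in all 4 comparisons within numbers, as were 18.9% of all tested genes, and Psenen in 2 of the 4. Rfng, the third fringe, and Pofut1, which adds the fucose that fringes extend, were lower in the CD34-positive library within every number. Rfng averaged 6.54 FPKM in CD34-positive libraries and 10.5 FPKM in CD34-negative ones (adjusted p = 0.0958 in limma with the block). Pofut1 averaged 6.00 FPKM in CD34-positive libraries and 9.04 FPKM in CD34-negative ones (adjusted p = 0.167 in limma with the block).

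None of the 8 tested nuclear genes was called at an unadjusted p under 0.05 in limma with the block. The corepressor Cir1 was called there as lower, averaging 14.4 FPKM in CD34-positive libraries and 19.3 FPKM in CD34-negative ones. Among the regulators Dtx4, a second Deltex, ran opposite to Dtx3. It stood at 16.0, 13.2 and 12.7 FPKM in CD34-positive replicates 1, 2 and 3, against 9.76, 2.50, 2.47 and 2.14 FPKM in CD34-negative replicates 1 to 4. The groups did not overlap, and CD34-negative replicate 1, the library with the most Cd34 of its group, was the nearest to the CD34-positive level. The log2 difference was 1.73 (SE 0.45, adjusted p = 0.628 in limma), and 1.63 (SE 0.28, adjusted p = 0.0931 in limma) with the block. Of the 7 blocked fits with 1 library left out, it passed only in those without CD34-negative replicate 1 (2.04, adjusted p = 0.0124) and without CD34-positive replicate 1 (2.04, adjusted p = 0.0125). These fits rest on the same libraries and are 1 comparison. Dtx3l averaged 6.52 FPKM in CD34-positive libraries and 4.07 FPKM in CD34-negative ones.

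The other genes listed as Notch targets differed in direction from each other. Of 13 listed target genes, 5 were tested and the rest, among them Hes5, Hey1, Hey2, Heyl, Nrarp and Ptcra, stayed under 0.5 FPKM in every library. Myc, a growth regulator, averaged 46.9 ± 15.2 FPKM over CD34-positive libraries (SD, n = 3) and 82.0 ± 22.2 FPKM over CD34-negative ones (SD, n = 4), and was lower within every number. Ccnd1, which encodes cyclin D1, averaged 21.5 ± 9.68 FPKM in the 3 CD34-positive libraries and 9.31 ± 4.35 FPKM in the 4 CD34-negative ones. Its groups barely missed each other, with the lowest CD34-positive and the highest CD34-negative library both at 14.5 FPKM. Gata3, a T cell regulator, averaged 5.73 ± 2.41 FPKM in CD34-positive libraries and 2.54 ± 2.59 FPKM in CD34-negative ones. Hes6, a family member known to counter Hes1, averaged 41.6 ± 13.9 FPKM in CD34-positive libraries and 28.5 ± 13.1 FPKM in CD34-negative ones. These 3 genes were higher in the CD34-positive library within every number. The adjusted p in limma with the block was 0.126 for Ccnd1, 0.120 for Gata3, 0.183 for Hes6 and 0.125 for Myc. Exons of Ccnd1, Gata3 and Dtx3l, and of Notch2, Numb and Maml1 above, overlap those of another gene in the annotation.

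**Figure D3:**
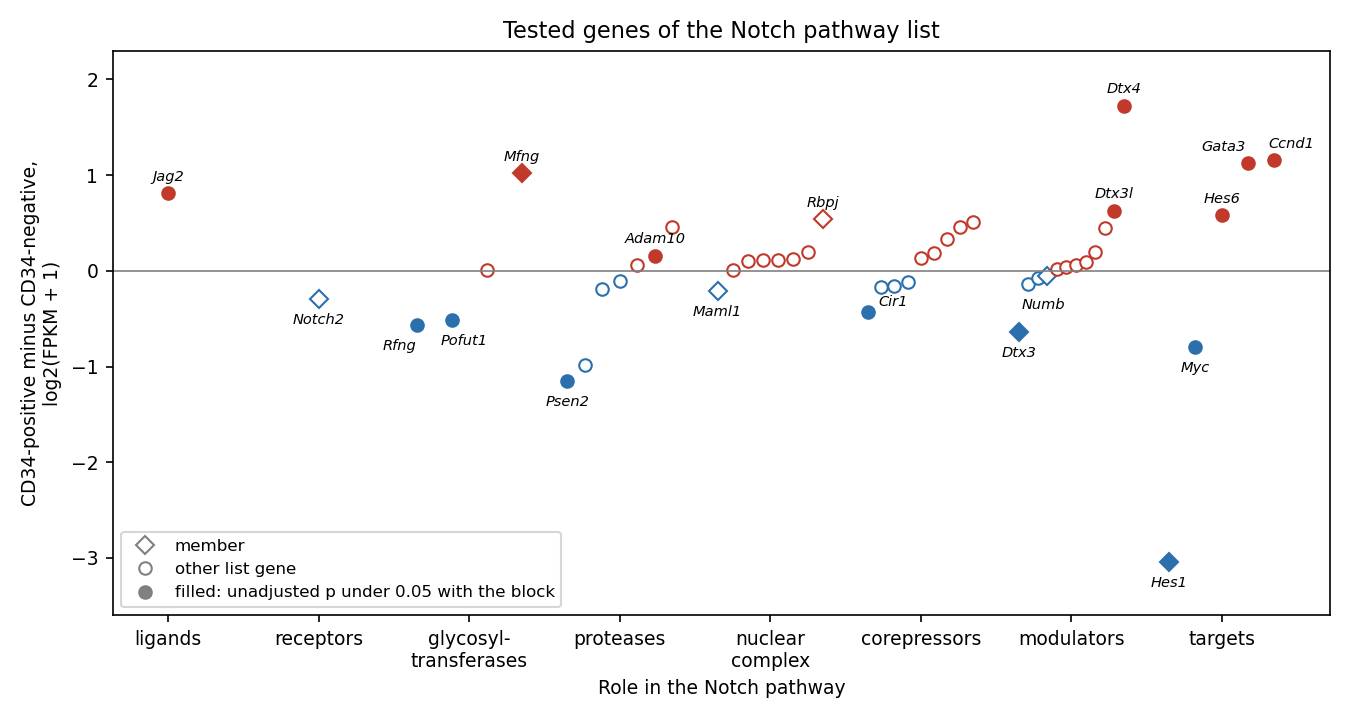
Difference on the log2(FPKM + 1) scale, CD34-positive minus CD34-negative, for 47 of the 49 tested genes of the Notch pathway list, by role. Diamonds are the 7 tested genes of the 10 followed here, circles the others, and filled symbols have an unadjusted p under 0.05 in the blocked limma fit. Hes1 at -3.05 lies below all others, and Dtx4 at 1.73 above.

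Values of marker genes of other cell states ran with the groups and so with Hes1. Of 8 tested mast cell markers, 6 were lower in the CD34-positive library within every number, beside 18.9% of all tested genes, and the summed level of all 9 listed ranged from 3347 to 4191 FPKM (median 3493) in CD34-positive and from 5007 to 19528 FPKM (median 5296) in CD34-negative libraries. Of the other 2, Srgn was lower in 2 of the 4 comparisons within numbers and the protease Cpa3 in 1. Cpa3 made up most of the sum in each CD34-positive library, with a mean of 2400 FPKM over these and of 1466 FPKM over the CD34-negative ones. Among the CD34-negative libraries the sum came in the same order as Hes1, with replicate 3 highest, then 2, 4 and 1. Replicates 2, 4 and 1 were close in sum, at 5371, 5221 and 5007 FPKM. All 9 markers were highest in replicate 3, but of them only Cma1 had the whole order of Hes1. Hdc, Mcpt4 and Tpsb2 were lowest in replicate 4, and Cpa3, Srgn and Fcer1a in replicate 2. Ms4a2 and Mcpt2 were higher in replicate 4 than in replicate 2. Of 8 tested erythroid markers, 7 were lower within every number, and the sum of all 10 ranged from 58.3 to 649.7 FPKM (median 144) in CD34-positive and from 149 to 2097 FPKM (median 520) in CD34-negative libraries. The groups of those 7 did not overlap, as for 3.01% of all tested genes in that direction. The exception was the globin gene Hbb-b1, at 1.40, 624 and 136 FPKM in CD34-positive replicates 1, 2 and 3, against 30.4, 1405, 37.4 and 154 FPKM in CD34-negative replicates 1 to 4. It made up most of the sum only in CD34-positive replicates 2 and 3 and CD34-negative replicate 2. Here the order differed, with CD34-negative replicate 3, the highest in Hes1, holding the lowest sum of its group. No marker of either list was at 0 in every library, and Fcer1a, Alas2 and Slc4a1 were below the minimum for testing. The part of either marker set in the Hes1 difference was not tested.

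**Figure D4:**
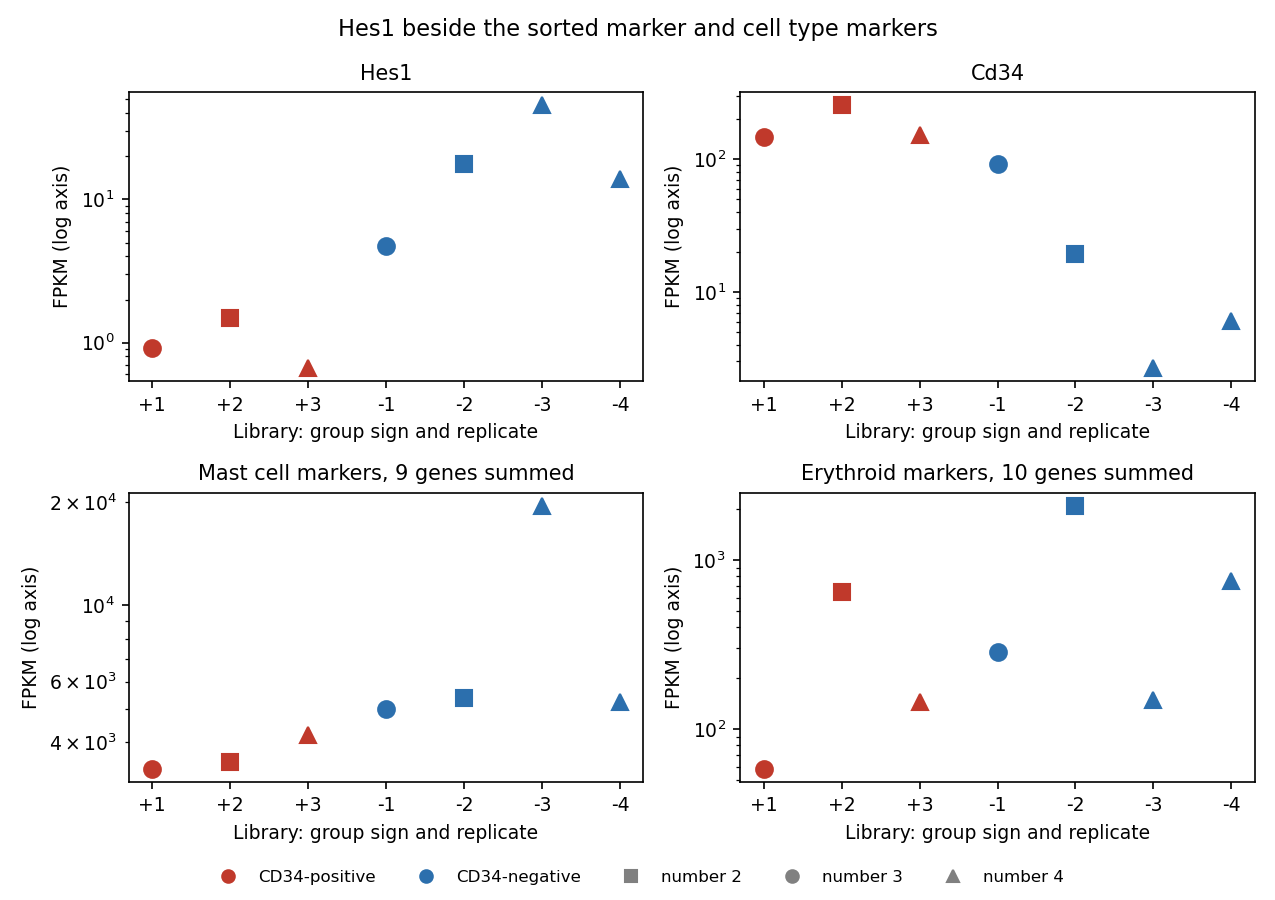
FPKM (log axes) of Hes1, Cd34, the 9 summed mast cell markers and the 10 summed erythroid markers in each library. Plus signs and red mark CD34-positive libraries, minus signs and blue CD34-negative ones, with the replicate number beside the sign. CD34-negative replicate 3 is highest in Hes1 and in mast cell markers (19528 FPKM) and lowest of its group in Cd34 and in erythroid markers (149 FPKM).

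Across the 7 libraries, the pattern of Hes1 was most like that of B4galt1, a Golgi galactosyltransferase (Pearson r = 0.99 on the log2 scale), among 7481 tested genes that averaged at least 5 FPKM in one group. Next came the mast cell proteases Cma1 (0.99) and Mcpt1 (0.98), the adhesion receptor Lphn1 (0.97) and Fam178b (0.97). Cma1 stood at 154, 219 and 147 FPKM in CD34-positive replicates 1, 2 and 3, against 695, 1502, 4886 and 915 FPKM in CD34-negative replicates 1 to 4. B4galt1 stood at 8.14, 8.39 and 6.98 FPKM in CD34-positive against 12.5, 17.5, 28.9 and 14.9 FPKM in CD34-negative libraries. The most opposite patterns were those of the tetraspanin Tspan13 (-0.98), D1Ertd622e, the sialic acid esterase Siae, the solute carrier Slc35e3 and Mphosph8, a chromatin silencing protein (-0.97 for the last). Tspan13 stood at 12, 8.21 and 10.2 FPKM in CD34-positive against 7.03, 1.64, 0.778 and 1.84 FPKM in CD34-negative libraries. All these coefficients describe 7 shared libraries, 3 of which form a kind of their own, and were the extremes of many genes. Some mast cell proteases are close relatives in sequence, between which reads may have been split, and this was not tested.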

How the data were processed

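RNA sequencing values of 7 EML libraries were analysed. FPKM values were deposited by the authors, 1 per symbol and library. The submitters' processing notes list TopHat2, TopHat and Cuffdiff among the tools, and both mm9 and mm10 as builds, with no word on which applies to which library. For the annotation, the use of strand and the depth, the status is the same: not given in the sources used here. No count model or counting interval is therefore printed, and the positions of promoter windows are those of RefSeq, not of the deposited table. The unused value columns number 0. From the table, 105 symbols listed more than once (322 rows, none of them a gene of the Notch pathway list) were left out. A gene was kept where 3 or more libraries reached 1 FPKM, log2(FPKM + 1) was taken, and groups from the titles were compared in limma 3.58.1 (R 4.3.3) with a mean-variance trend, two-sided, at an adjusted p of 0.05. The fit without the block was tested on simulated data in which libraries varied independently. Effects shared by libraries of 1 description number were not part of that test. Permutation tests used scipy 1.17.1. A genotype label of the CD34-negative libraries reads CD43, and the titles were followed.

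The description numbers were checked as pairs by correlating deviations from the group means. The correlation was 0.70 for number 3, 0.92 for number 2, and 0.82 and 0.85 for number 4, and -0.86 to 0.37 between unlike numbers, so they were taken to pair the libraries. The fit without the block does not use these pairs. Its SE was 0.34 for Dtx3 and 0.68 for Mfng, beside 0.13 and 0.21 with the block. Whether replicates are separate cultures is not stated in the labels. The p-values therefore reflect only how far these libraries spread, and that spread may be technical.

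The genes and lists were chosen with earlier results of these data known. Named genes are the 10 genes, Cd34, genes of the pathway list with an unadjusted p under 0.05 in either fit or high levels in their role, marker genes, and the 5 most alike and 5 most opposite to Hes1. Alternatives were the block, a pseudocount of 0.1, no minimum or 5 FPKM, quantile and median-ratio scaling, CD34-negative replicates 3 and 4 averaged, each library left out with and without the block, and each kind of library alone. Some genes of the pathway list enter its counts but are not reported here by name or plotted.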

Additional observations from a re-analysis of the deposited data

Results flagged for a closer look

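Of 43 named genes, 3 had a CD34-negative library that lay far from the remaining 3 in log2(FPKM + 1). Chance flags about 1 in 20 groups. Each value is the distance of that library from its closest neighbour, divided by the range of the group. Dtx4 gave 0.911, with 9.76 FPKM in CD34-negative replicate 1 and 2.14 to 2.50 FPKM in the other 3. Adam10, a protease that cuts the receptor outside the cell, gave 0.906, with 4.09 FPKM in CD34-negative replicate 2 and 29.1 to 35.2 FPKM in the other 3. The CD34-positive library of the same number was also low in Adam10, at 7.73 FPKM beside 34.4 and 40.3 FPKM in CD34-positive replicates 1 and 3. Lfng gave 0.875, with 2.34 FPKM in CD34-negative replicate 2 and 0.0612 to 0.225 FPKM in the other 3.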

How the results depend on the processing

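Hes1, Dtx3, Maml1, Mfng and Rbpj kept their direction in all 23 alternatives. For Hes1, whose groups did not overlap, only quantile and median-ratio scaling could have reversed it. For Dtx3, Maml1 and Mfng, with 1 direction in all 4 comparisons within numbers, the blocked fits could not reverse it. Changing the minimum level left each difference as it was, and some blocked fits repeat other settings. The 23 are therefore not separate checks. The sizes moved, over all alternatives, between -0.87 and -0.47 for Dtx3, -0.32 and -0.053 for Maml1, 0.37 and 1.46 for Mfng, and 0.21 and 0.93 for Rbpj. Mfng was 0.37 in numbers 2 and 3 alone and in the blocked fit without CD34-positive replicate 3, Rbpj 0.21 in the blocked fits without either replicate 2 library, and Maml1 -0.053 without CD34-positive replicate 2 and no block. For Hes1 the log2 difference was -3.83 with a pseudocount of 0.1, -3.18 with quantile normalization, -3.13 with median-ratio scaling, -2.24 in numbers 2 and 3 alone and -3.98 in number 4 alone. Leaving out 1 library at a time gave -3.55 to -2.55 without the block and -3.52 to -2.24 with the replicate block, and the adjusted p was 0.0509 without CD34-negative replicate 1 and no block. Numb reversed to 0.0072 with the replicate block, 0.0056 with CD34-negative replicates 3 and 4 averaged, 0.069 in numbers 2 and 3 alone, and ranged from -0.33 to 0.14 with 1 library left out. With the replicate block it was 0.123 when either replicate 1 library was left out, 0.124 when CD34-negative replicate 3 was, and 0.069 when CD34-positive replicate 3 was. Notch2 reversed to 0.069 in numbers 2 and 3 alone and ranged from -0.50 to 0.069 with 1 library left out. The cause was not tested. With 1 library left out, the calls in limma ranged from 0 to 231 higher and 0 to 125 lower over all tested genes, 0 to 1 higher and 0 to 2 lower in the pathway list, and none higher and 0 to 1 lower among the 10 genes. Without CD34-negative replicate 1 and no block, 7 genes were higher and 3 lower, and with the block 231 and 81. Leaving out CD34-positive replicate 1 from the blocked fit makes the same comparison and gave 230 and 81. Without CD34-negative replicate 3 the blocked fit gave 32 and 125, and without CD34-positive replicate 3 it gave 1 and 0. The block changed no other call. Without depth, differences of genes under 1 FPKM cannot be weighed.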
